A study of Rattus norvegicus with 4 samples.

Results

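Gonadotrophs, the cells of the anterior pituitary that secrete luteinizing hormone (LH) and follicle-stimulating hormone (FSH), were taken as the cells in which *Cga* held at least 1% and *Lhb* at least 0.3% of the unique molecular identifiers (UMIs), with *Gh1* below 5% and *Prl* and *Pomc* each below 2%. The members were thus chosen by these measured shares, and 244 of 7861 cells met the rule. The cells came from dispersed anterior pituitaries of Sprague Dawley rats, which carried no transgene and received no treatment named in the labels. The female sample was 1 pool of 4 pituitaries of rats in diestrus at postnatal day 44, and the male sample was 1 pool of 4 pituitaries at postnatal day 59. Each pool was loaded on 2 lanes of a droplet-based single-cell RNA sequencer, here called F-a and F-b for females and M-a and M-b for males. The lanes of a sex are therefore technical replicates, each p-value below measures the spread between lanes, and sex cannot be told apart from pool and age.

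LH and FSH share the alpha subunit encoded by *Cga* and differ in their beta subunits, encoded by *Lhb* and *Fshb*. Pulses of gonadotropin-releasing hormone (GnRH) reach the cells through *Gnrhr*, a Gq-coupled receptor, and activate protein kinase C, MAP kinases and the transcription factor EGR1, which acts with NR5A1 (SF-1) and PITX1 on the *Lhb* gene. Activins raise and inhibins lower *Fshb* expression, and TGFBR3L is an inhibin B co-receptor of gonadotrophs.

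The *Lhb*, *Cga* and *Tgfbr3l* promoters are shown because these genes define the cells or the hormones they make and because 2 of the factors just named, NR5A1 and EGR1, had higher mRNA levels in gonadotrophs than in the other hormone-producing types, as described below. The sequences are from RefSeq on the GRCr8 build, from 250 bases before to 50 bases after the gene start, on the plus strand at chr1:105037207-105037506 for *Lhb* (the first of 2 entries), chr5:54283090-54283389 for *Cga* and chr12:7398467-7398766 for *Tgfbr3l*. Capitals mark the matches on either strand to 3 of 4 motifs searched, CAAGGNCA (NR5A1-type, 8 letters), GGGGGNG (EGR-type, 7 letters) and TATAAA, the core promoter box (6 letters). The fourth, TAATCC (PITX-type), was in none of the 3 windows.
Lhb: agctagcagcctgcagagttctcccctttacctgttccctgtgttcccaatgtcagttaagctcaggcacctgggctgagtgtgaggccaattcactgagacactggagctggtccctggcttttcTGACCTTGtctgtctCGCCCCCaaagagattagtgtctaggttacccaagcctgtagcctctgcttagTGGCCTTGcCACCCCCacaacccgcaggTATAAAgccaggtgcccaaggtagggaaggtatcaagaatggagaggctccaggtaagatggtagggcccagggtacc
Cga: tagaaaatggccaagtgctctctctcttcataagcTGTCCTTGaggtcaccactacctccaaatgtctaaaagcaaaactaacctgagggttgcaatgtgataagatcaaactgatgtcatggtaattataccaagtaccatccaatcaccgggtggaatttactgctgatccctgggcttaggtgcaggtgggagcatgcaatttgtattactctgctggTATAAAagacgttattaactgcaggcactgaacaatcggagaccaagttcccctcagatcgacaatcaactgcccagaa
Tgfbr3l: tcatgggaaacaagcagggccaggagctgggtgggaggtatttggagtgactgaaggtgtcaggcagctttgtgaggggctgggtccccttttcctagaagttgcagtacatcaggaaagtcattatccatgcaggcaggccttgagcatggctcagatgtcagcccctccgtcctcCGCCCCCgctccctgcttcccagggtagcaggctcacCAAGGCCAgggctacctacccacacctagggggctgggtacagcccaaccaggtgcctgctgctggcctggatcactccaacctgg
The NR5A1-type motif began 124 and 56 bases before the start in *Lhb*, 215 bases before it in *Cga* and 36 bases before it in *Tgfbr3l*. The EGR-type motif began 109 and 47 bases before the start in *Lhb* and 73 bases before it in *Tgfbr3l*, and none of the matches overlapped. Over all 33469 promoters of this length, 6.55% held the NR5A1-type motif, 31.6% the EGR-type motif, 14.2% the TATA box and 7.17% the PITX-type motif, so a match is a description of these letters and not of binding.

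The lanes held 83, 75, 44 and 42 gonadotrophs (F-a, F-b, M-a and M-b, the order used for all values below), with 1085085, 1030341, 460402 and 491500 UMIs in sum. The median cell held 11201, 12900, 9158 and 10959 UMIs. Gonadotrophs made up 4.44% (exact 95% interval 3.55 to 5.48), 4.03% (3.18 to 5.03), 2.15% (1.57 to 2.87) and 2.01% (1.46 to 2.71) of the cells of a lane. Both female lanes were thus above both male lanes, with 4.24% of 3729 female and 2.08% of 4132 male cells, and 2 lanes against 2 cannot reach a two-sided exact permutation p below 0.33. Intervals cover counting error only, and the share also depends on the rule, as *Lhb* was lower in males.

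The label was in keeping with the markers. *Gnrhr*, not used by the rule, had a UMI in 94.3% of female and 97.7% of male members, and *Tgfbr3l* had one in all 244. *Nr5a1*, the nuclear receptor that specifies the lineage, was found in 85.4% and 66.3%. As background, *Gnrhr*, *Tgfbr3l* and *Nr5a1* had a UMI in 1.52%, 10.5% and 0.351% of folliculostellate cells. In thyrotrophs the shares were 6.67%, 24.4% and 6.67%. The Y-linked *Eif2s3y* had 0, 1, 118 and 144 UMIs, and the noncoding gene LOC100911498, which RefSeq names *Xist*, had 233, 162, 0 and 0, so the lanes matched their assigned sexes.

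Of the rule's limits, members came closest to that for *Lhb*. The lowest *Cga* share among members was 1.29%, whereas the nearest *Lhb* shares inside and outside the limit were 0.302% and 0.297%. Of the upper limits, 1 member of F-a came near that for *Gh1*, at 4.44%, while the highest *Prl* and *Pomc* shares were 1.41% and 1.38%. Of the 250 cells that met both subunit limits, 6 were left out, 4 of them for *Prl*, 1 for *Gh1* and 1 for *Pomc*. A further 241 cells met every limit but that for *Lhb*.

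*Cga* held a median of 7.10% of a female and 4.26% of a male member's UMIs, and *Lhb* 6.15% and 2.41%. These subunits chose the cells, and their values are given without a test. *Cga* amounted to 79540, 106700, 55660 and 47690 counts per 1000000 UMIs of the lane's gonadotrophs (CPM), and *Lhb* to 69750, 78700, 49970 and 44420, so that both were higher in the female lanes. Single cells varied widely, *Lhb* from 0.302% to 14.2% in females and from 0.384% to 15.6% in males. Across cells, *Cga* and *Lhb* shares had a Spearman correlation of 0.63 over 158 female and 0.21 over 86 male cells. These values are a description, since both shares share a denominator and *Lhb* also followed depth (0.62 and 0.37). *Cga* followed depth in females (0.49) and not in males (-0.0006), so the 2 correlations cannot be compared between the sexes.

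*Fshb* went the other way. It had 1811, 2053, 3995 and 4561 UMIs, or 1669, 1993, 8677 and 9280 CPM. The means were 1831 ± 229 in females and 8978 ± 426 in males (SD, n = 2 lanes each), a ratio of 4.90. The fitted male-to-female difference was 2.07 on the log2 scale (SE 0.10, edgeR quasi-likelihood test, adjusted p = 1.94e-12), and it stayed past the limit of 0.001 with any 1 lane left out. At least 1 *Fshb* UMI was found in 51.3% of female (81 of 158) and 98.8% of male members (85 of 86). After each cell was thinned to 4000 UMIs, which left 149 female and 85 male members, the shares were 43.0% and 98.8%. In folliculostellate cells, which do not make FSH, the shares were 0.866% and 3.32% at median depths of 6355 and 7539 UMIs (0.697% and 1.21% thinned), so both sexes lay above that background.

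The female *Fshb* UMIs came from few cells. At least 0.1% of UMIs were *Fshb* in 44 of 158 female cells (17 of 83 in F-a and 27 of 75 in F-b) and in 83 of 86 male cells. The 40 female cells with the most *Fshb* UMIs held 95.1% of the female *Fshb* UMIs. The 22 of 86 male cells with the most held 55.5% of the male ones. This ranking by UMIs also depends on the depth of a cell. The median share was 0.00445% in females and 0.829% in males, and 12 female cells lay between 0.05% and 0.2%, so the division at 0.1% is a cut through a range. Because the 4 rats of a sex were pooled, a mixture of animals and a mixture of cells within each animal cannot be told apart.

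**Figure D1:**
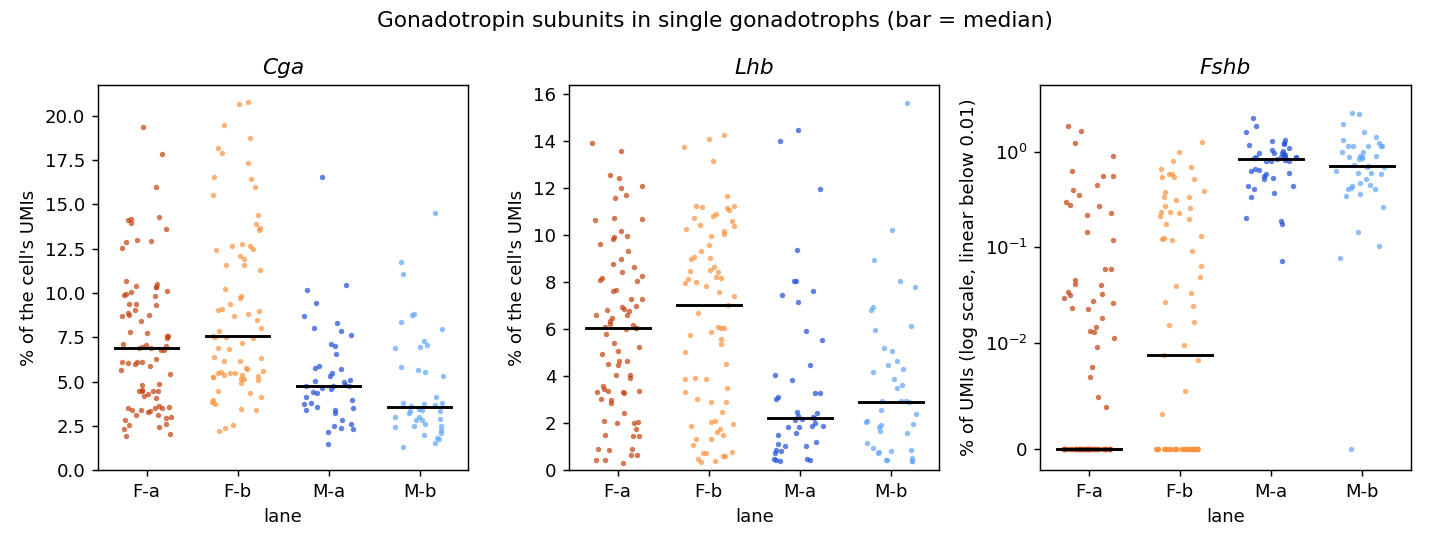
Percent of a cell's UMIs taken by *Cga*, *Lhb* and *Fshb* in each gonadotroph (points), by lane, with the median as a bar. The *Fshb* medians sit near 0 in both female lanes and at 0.844% and 0.712% in the male lanes, whereas the *Cga* and *Lhb* medians are higher in the female lanes.

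The female cells with at least 0.1% *Fshb* also differed from the other female cells in depth, with median totals of 17597 and 16608 against 9150 and 11071 UMIs in F-a and F-b. *Scg2*, which encodes a secretory granule protein, amounted to 11748 and 10077 CPM in them against 6985 and 6420 in the other cells. *Rgs4*, a regulator that shortens G protein signals, amounted to 838 and 613 against 428 and 314. *St3gal4*, a sialyltransferase, amounted to 148 and 108 against 37.1 and 34.7, whereas *Igfbp2*, a binding protein of insulin-like growth factors, was at 18.1 and 30.5 against 84.1 and 57.9. The *Igfbp2* level in F-a rests on 5 UMIs. These 4 genes were picked after their values were seen, and the values are descriptions, as the cells were divided by *Fshb* and differ in depth.

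Genes that set gonadotrophs apart from the other hormone-producing cells were sought by comparing summed UMIs with those of thyrotrophs (90 cells), corticotrophs (824), somatotrophs (2017) and lactotrophs (494) in the 4 lanes. Of 11843 genes tested, 178 (1.5%) were higher in gonadotrophs than in each of the 4 types at an adjusted p below 0.001, and 52 (0.439%) were lower than in each. Thyrotrophs, which share the alpha subunit, were the nearest type, with 433 genes (3.66%) higher and 283 (2.39%) lower in gonadotrophs. Against corticotrophs these numbers were 1175 (9.92%) and 1238 (10.5%), against somatotrophs 1387 (11.7%) and 1562 (13.2%), and against lactotrophs 1078 (9.1%) and 1369 (11.6%), although the thyrotroph sums rest on the fewest cells. Without lane F-a the number higher than in all 4 types was 108 and without F-b it was 97.

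Genes were ranked by the smallest of the 4 fitted differences. A fitted difference averages the log2 differences of the sexes, so it departs from the ratio of mean levels where a type differed between the sexes. It depends on the fit's prior count where a type had no UMI in a sex, as for 16 of the 20 genes ranked highest. Ratios of mean CPM to the type with the next highest level are therefore given below. *Fshb* ranked first (8.02 on the log2 scale, SE 0.18, against lactotrophs), with a ratio of 339. Its level was 5405 CPM as the mean of the 4 lanes of gonadotrophs, 15.9 in lactotrophs, 5.75 in thyrotrophs, 3.14 in corticotrophs and 3.09 in somatotrophs. *Gnrhr* was at 1110 CPM against 43.7 in thyrotrophs and at most 3.63 in the other 3 types, a ratio of 25.4. *Tgfbr3l* was at 7683 against 377 in thyrotrophs and 29.1 or less in the others, a ratio of 20.4. Most of the thyrotroph UMIs were of females, 24 against 2 of males for *Gnrhr* and 196 against 33 for *Tgfbr3l*. *Gnrhr*, *Tgfbr3l* and *Fshb* are the receptor, the co-receptor and the beta subunit through which gonadotrophs are recognised, and the largest adjusted p of the 4 contrasts was 2.93e-19, for *Gnrhr* against thyrotrophs.

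Transcription factors followed. *Nr5a1* was at 166 CPM against 16.6 in thyrotrophs and less than 1 in the other types, a ratio of 10.00, and its thyrotroph level rests on 9 UMIs, all of females. *Nhlh2*, a basic helix-loop-helix factor, was at 70.2 against 7.46 in thyrotrophs, a ratio of 9.41 that rests on 4 thyrotroph UMIs, all of females. *Pitx3*, a paired-like homeodomain factor best known from dopaminergic neurons, was at 96.5 against 4.8 in thyrotrophs, a ratio of 20.1 that rests on 4 thyrotroph UMIs. Of 20 lineage factors tested, 6 passed in all 4 contrasts, beside 1.5% of all genes, the others being *Nr0b1*, which encodes the corepressor DAX1, *Egr1* and *Foxp2*. *Foxl2*, *Isl1*, *Gata2* and *Pitx1* did not, and their nearest type was the thyrotroph, with differences of 0.43 (SE 0.24), 0.02 (SE 0.19), 0.15 (SE 0.17) and 0.19 (SE 0.14). *Pou1f1*, the factor of the thyrotroph, somatotroph and lactotroph lineages, was at 9.06 CPM in gonadotrophs against 224 in thyrotrophs.

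Ligands and matrix genes were also among the genes with the largest differences. *Spp1*, which encodes the secreted phosphoprotein osteopontin, was at 450 CPM against 2.1 or less in the 4 types, a ratio of 214. *Ihh*, the ligand Indian hedgehog, was at 66.4 against 3.73 in thyrotrophs and 0.168 or less in the others, with 2 thyrotroph UMIs in all. *Defb24*, a beta-defensin, was at 266 against 16.1 in thyrotrophs, a ratio of 16.5 that rests on 9 thyrotroph UMIs, all of females. *Bmper*, a secreted BMP-binding protein, was at 28.9 against 1.73 in thyrotrophs (1 UMI), and its adjusted p rose to 0.00918 without F-a, 0.00323 without F-b and 0.0053 without M-a. *Lama1*, a laminin chain, *Lad1*, an anchoring filament protein, *Chrna4*, a nicotinic receptor subunit, and *Cdh1*, which encodes E-cadherin, had no UMI in the 90 thyrotrophs and were at 46.9, 21.7, 45.9 and 62.0 in gonadotrophs. The *Lama1* call was lost without F-b (adjusted p = 0.00323) and the *Lad1* call without any 1 of the lanes (0.00205 to 0.0164).

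The remaining 6 of the 20 genes had varied functions. *Cnga1*, a cyclic nucleotide-gated cation channel subunit best known from rod photoreceptors, was at 237 CPM against 14.0 in thyrotrophs and 3.44 or less in the others, a ratio of 16.9. *Rrad*, a small GTPase that inhibits voltage-gated calcium channels, was at 126 against 2.44 in corticotrophs, a ratio of 51.5, and *Ppfia4*, a liprin of the presynaptic active zone, was at 69.3 against 2.74 there, a ratio of 25.3. *Stap1*, a signal adaptor at 68.5 CPM, lost its call without F-b (adjusted p = 0.00164), and *Dusp15*, a dual-specificity phosphatase at 37.5 against 9.19 in thyrotrophs (ratio 4.08, from 5 thyrotroph UMIs, all of females), lost it without F-a (0.00256) and without M-a (0.0018). *Hoga1*, a mitochondrial aldolase of hydroxyproline breakdown, completed the 20 genes, at 79.7 against 2.18 in lactotrophs, a ratio of 36.6.

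By list, the share passing in all 4 contrasts was 4 of 28 genes of GnRH signalling (*Gnrhr*, *Dusp15*, *Rgs4* and the protein kinase C gene *Prkcb*), 6 of 52 ion channels, 7 of 26 adhesion and matrix genes, 4 of 31 ligands and 5 of 20 immediate early genes (2 with DESeq2), beside 1.5% of all genes. The channels were *Cnga1*, the potassium channel subunits *Kcna2*, *Kcna4*, *Kcnk3* and *Kcnmb4* and the sodium channel subunit *Scn3b*. All lists, that of the lineage factors included, were chosen with earlier results of these data known. They hold genes that the paper had already called gonadotroph-dominant in these data, among them *Cdh1*, *Krt7*, *Spp1*, *Vegfa* and *Kcnmb4*. The shares beside 1.5% are therefore descriptions and no test of a gene family. Of 24 activin, inhibin, BMP and AMH genes, *Tgfbr3l* and *Tgfbr3*, which encodes betaglycan, passed, and *Fkbp5*, a cochaperone of steroid receptors, was among the members of the steroid and thyroid hormone receptor list that passed. Of 34 exocytosis genes, *Rph3al* and *Otof*, which encodes the calcium sensor otoferlin, passed, the latter at 137 CPM against 15.3 in thyrotrophs and below 1 in the other 3 types. None of 26 genes of folding in the endoplasmic reticulum (ER) passed with edgeR or DESeq2 (2 at unadjusted p-values below 0.05 in all 4 contrasts). As differences of log2(CPM + 1) between the mean level in gonadotrophs and the highest mean level of the 4 types, list medians were 0.12 for the lineage factors, 0.45 for the immediate early genes, -0.18 for GnRH signalling, -0.41 for the channels, -0.52 for adhesion and matrix genes and -1.61 for the ligands, beside -0.32 over all genes.

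**Figure D2:**
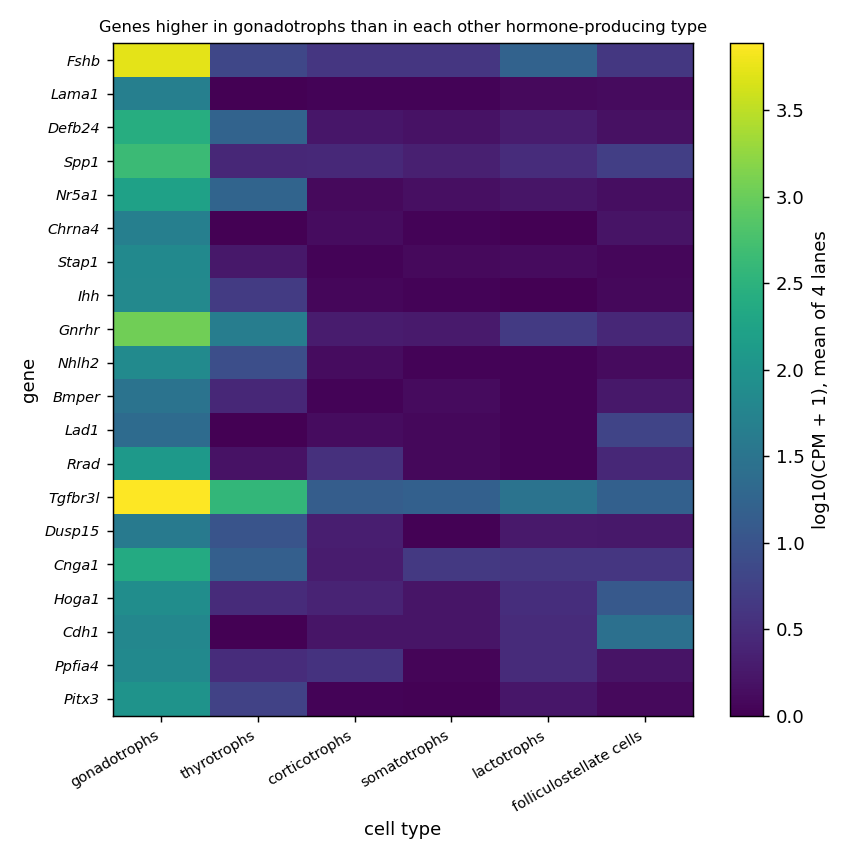
Expression of genes higher in gonadotrophs in 6 cell types, as log10 of CPM plus 1, mean of the 4 lanes. Thyrotrophs are the second type for *Gnrhr* (43.7) and *Tgfbr3l* (377), and levels in somatotrophs and corticotrophs are near 0 for most rows.

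Of the 178 genes, 117 had a RefSeq promoter, and the NR5A1-type motif shown above was in 8 of these (6.84%, beside 6.55% of all promoters). The EGR-type motif was in 67 (57.3%, beside 31.6%), the TATA box in 9 (7.69%, beside 14.2%) and the PITX-type motif in 6 (5.13%, beside 7.17%), and base composition and expression level, which bear on a motif of mostly G, were not matched.

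Male and female gonadotrophs were compared over 7112 genes. At an adjusted p below 0.001, 139 genes (1.95%) were higher in males and 207 (2.91%) in females, 346 (4.87%) together, and in 58.5% of all genes tested the lanes of the sexes did not overlap. DESeq2 called 55 and 123, and after thinning each cell to 4000 UMIs edgeR called 9 and 14. The balance of directions depended on the scaling: by library size in place of TMM factors 183 genes were higher in males and 89 in females, and the median log2 difference of all genes moved from 0.01 to 0.23. Of the genes named for this comparison, 36 were past the limit no longer after thinning. Fold changes below are from the TMM fit, relative to that median near 0, and CPM are not adjusted by it. The shares of lists below are descriptions, since the lists were chosen with earlier results of these data known.

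Among the 10 genes with the largest difference toward males, several were all but absent from females. *Eif2s3y* is Y-linked. *Ddx3* had 0, 0, 24 and 19 UMIs (at least 31.9-fold higher, from a floor of 3 UMIs over the female lanes). RefSeq uses this symbol for a gene of its own and as a synonym of the Y-linked *Ddx3y*, which has a separate row in the table (0, 2, 0 and 0 UMIs), so that the identity of *Ddx3* is uncertain. In the other 4 hormone-producing types *Ddx3* likewise had no female UMI and was at 28.4 to 30.6 CPM in males. *Lypd8*, which encodes a GPI-anchored LY6 family protein, had 0, 0, 23 and 28 UMIs (at least 37.8-fold). *Spint3*, a Kunitz-type inhibitor gene, had 0, 0, 15 and 8 UMIs (at least 17.0-fold), and its adjusted p was 0.0338 and 0.0298 without F-a and F-b. *Cited1*, a transcriptional coactivator, had 5, 1, 118 and 145 UMIs, or 4.61, 0.971, 256 and 295 CPM (6.31, SE 0.31, adjusted p = 8.44e-13), with a UMI in 3.80% of female and 76.7% of male cells. *Fam84a* (now *Lratd1*) was at 5.53, 4.85, 97.7 and 144 CPM (4.28, SE 0.35). *Nmb*, which encodes the neuropeptide neuromedin B, was at 5.53, 4.85, 109 and 93.6 (4.02, SE 0.35, adjusted p = 2.93e-08). *Thrsp*, a gene of the lipogenic response to thyroid hormone, was at 9.22, 4.85, 254 and 65.1 (4.23, SE 0.51), where the male lanes differed from each other and the call was lost with DESeq2 (adjusted p = 0.00132) and after thinning (0.0234). *Oasl2*, an interferon-responsive gene, was at 5.53, 3.88, 80.4 and 97.7 (3.97, SE 0.36), and *RT1-T24-4*, a class I histocompatibility gene whose UMIs may be split among near-identical family members, at 2.77, 2.91, 82.5 and 77.3 (4.52, SE 0.40). Both were higher in males in the other types as well, *Oasl2* by 1.64 to 5.32 and *RT1-T24-4* by 2.00 to 3.14 on the log2 scale. After thinning, the edgeR calls of *Ddx3* (adjusted p = 0.00168), *Fam84a* (0.00137), *RT1-T24-4* (0.00137), *Nmb* (0.00256) and *Oasl2* (0.00134) were lost as well.

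Of the 10 genes toward females, *Pvalb*, the calcium-binding protein parvalbumin, had 422, 423, 0 and 0 UMIs (at least 127-fold higher in females, floor of 3 UMIs over the male lanes), in 41.1% of female cells. *Hpca*, the neuronal calcium sensor hippocalcin, had 81, 104, 0 and 0 (at least 27.8-fold). *S100g*, the calcium-binding protein calbindin-D9k, had 91, 183, 0 and 1 (ratio 123, counting interval 22.0 to 4887). It was higher in females in other types too, at 1096 against 10.7 CPM in lactotrophs, 167 against 0.290 in somatotrophs and 65.5 against 0 in thyrotrophs, and the departure of the difference in gonadotrophs from their mean was 0.64 (adjusted p = 0.962). In folliculostellate cells it was at 14.1 in females and 12.7 in males. The granin *Vgf* had 82, 85, 0 and 1 UMIs (ratio 75.2, 13.3 to 2986), and *Pgf*, placental growth factor, 59, 44, 0 and 0 (at least 15.5-fold). After thinning, the edgeR calls of *Hpca* (adjusted p = 0.00228), *S100g* (0.00542) and *Vgf* (0.00695) were lost.

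The other 5 genes toward females were of varied function. *Asic2*, an acid-sensing sodium channel subunit, had 55, 54, 0 and 0 UMIs (at least 16.4-fold), and *Gria1*, an AMPA receptor subunit, 29, 23, 0 and 0 (at least 7.80-fold). *B3gat1*, the glucuronyltransferase of the HNK-1 epitope, had 55, 36, 0 and 1 (ratio 41.0, 7.17 to 1635). *Rin2*, a RAB5 exchange factor, had 23, 24, 0 and 0 (at least 7.05-fold), and *Col18a1*, a collagen chain, 19, 16, 0 and 0 (at least 5.25-fold). Adjusted p-values without 1 lane reached 0.0222 for *Gria1* (F-a), 0.0348 for *Rin2* (F-b) and 0.00294 for *Col18a1* (M-b), and that of *Col18a1* was 0.00175 by library size and 0.00166 in 1 fit over all hormone-producing types.

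**Figure D3:**
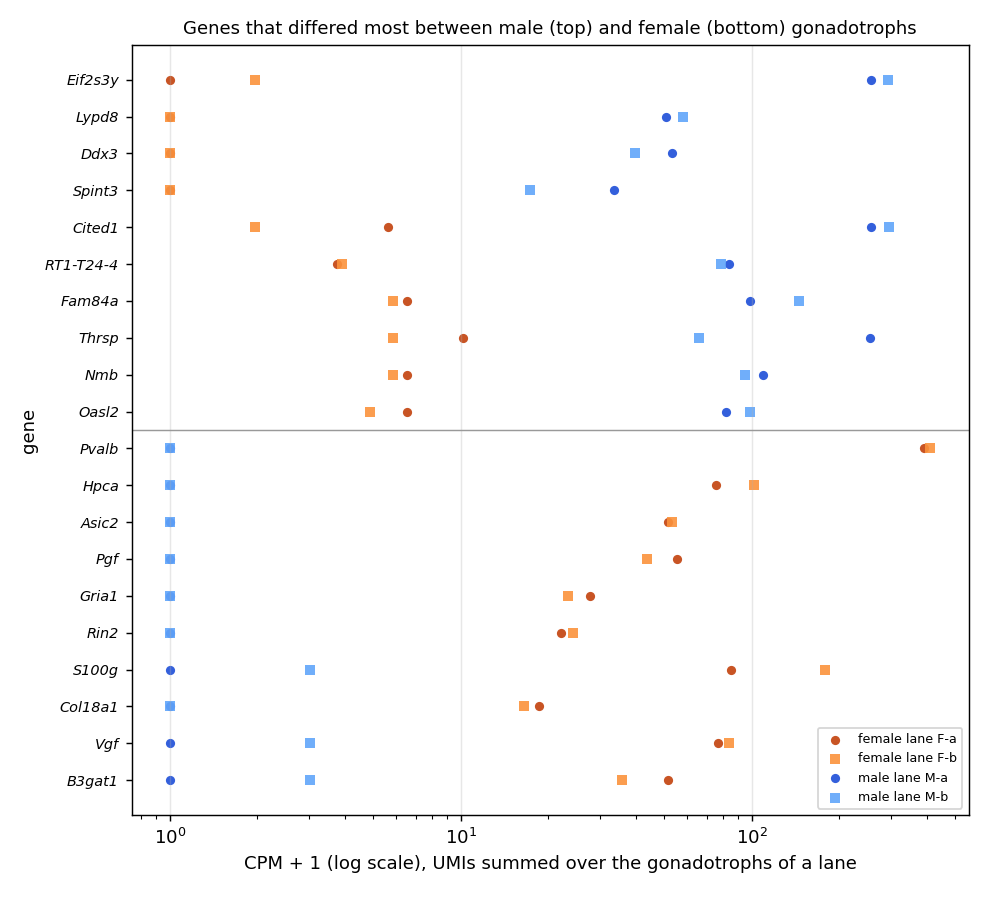
CPM plus 1 (log axis) in each of the 4 lanes for the 10 named genes with the largest male-to-female difference in each direction. Male and female lanes do not overlap for any of the 20 genes, which were chosen for their large differences, beside 58.5% of all genes tested. *Pvalb*, *Hpca*, *Asic2*, *Pgf*, *Gria1*, *Rin2* and *Col18a1* have no UMI in the male lanes.

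Granins and prohormone-processing genes had members in both directions, with 2 of 15 tested higher in males and 2 in females, beside 1.95% and 2.91% of all genes (list median 0.29, beside 0.01 for all genes). *Chga*, the granule protein chromogranin A, was at 2379, 2645, 15150 and 13070 CPM (2.27, SE 0.10, adjusted p = 3.69e-13), a ratio of means of 5.62. *Scg2* was at 8200, 7932, 12880 and 13460 (0.48, SE 0.08), and its call did not hold without M-a (adjusted p = 0.0261) or M-b (0.026). *Scg3*, a granin-binding protein of the granule membrane, was lower in males, at 453, 475, 302 and 311 (-0.82, SE 0.12), and *Vgf* likewise. *Scg3* was past the limit no longer by library size (adjusted p = 0.0016).

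Of 25 genes of protein folding in the ER, 4 were higher in males and none in females, beside 1.95% and 2.91% of all genes tested (list median 0.37). At an unadjusted p below 0.05, edgeR gave 14 higher in males and 2 in females, and DESeq2 called 2 and 0 at the limit of 0.001. *Hspa5*, the chaperone BiP, was at 494, 380, 1047 and 1143 CPM (1.11, SE 0.12, adjusted p = 2.98e-07). *Pdia3* and *Pdia6*, protein disulfide isomerases, were at 631, 588, 1073 and 1300 (0.74, SE 0.11) and at 594, 524, 928 and 1070 (0.62, SE 0.11). Both calls were lost without M-b (adjusted p = 0.00419 and 0.0226). *Herpud1*, a component of ER-associated degradation, was at 74.7, 80.6, 211 and 163 (1.04, SE 0.18), with an adjusted p of 0.00108 without F-a and 0.00889 without M-a. *Creb3l1*, an ER-bound transcription factor, was at 43.3, 46.6, 8.69 and 20.4 without passing the limit.

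Of 18 glycosylation genes tested, 1 was higher in males and 2 in females with edgeR, beside 1.95% and 2.91% of all genes, and 0 in either direction with DESeq2 (edgeR at an unadjusted p below 0.05, 4 and 5). *Ddost*, a subunit of the oligosaccharyltransferase that starts N-glycans, was at 288, 299, 593 and 604 CPM (0.80, SE 0.12). *Chst8*, the sulfotransferase that caps the N-glycans of LH, was at 68.2, 101, 26.1 and 20.4 (-2.08, SE 0.32, adjusted p = 5.16e-05). *B3galt2*, a galactosyltransferase, was at 62.7, 39.8, 6.52 and 6.10 (-3.21, SE 0.45). Thus the enzyme of LH sulfation and a galactosyltransferase were higher in females, and a gene of the general N-glycan pathway in males.

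Of 21 ion channel genes, 6 were higher in males (2 with DESeq2) and 1, *Asic2*, in females, beside 1.95% and 2.91% of all genes (list median 0.31). *Scn3b*, a sodium channel beta subunit, was at 82.0, 56.3, 274 and 228 CPM (1.63, SE 0.18). *Cacna2d1*, an auxiliary subunit of voltage-gated calcium channels, was at 59.0, 69.9, 165 and 189 (1.24, SE 0.18). The other 4 were potassium channel genes. *Kcnmb4*, a beta subunit of BK channels, was at 12.0, 6.79, 69.5 and 167 (3.41, SE 0.38), *Kcnj6*, which encodes GIRK2, at 6.45, 2.91, 47.8 and 28.5 (2.74, SE 0.48), and the voltage-gated *Kcna2* and *Kcna4* differed by 2.55 (SE 0.38) and 1.76 (SE 0.27). Of 23 exocytosis genes, *Sytl4*, which encodes the granule tether granuphilin, was higher in males at 61.8, 43.7, 146 and 128 (1.15, SE 0.21). This call was lost without F-b (adjusted p = 0.00259), without M-a (0.00233) and with DESeq2 (0.0379).

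**Figure D4:**
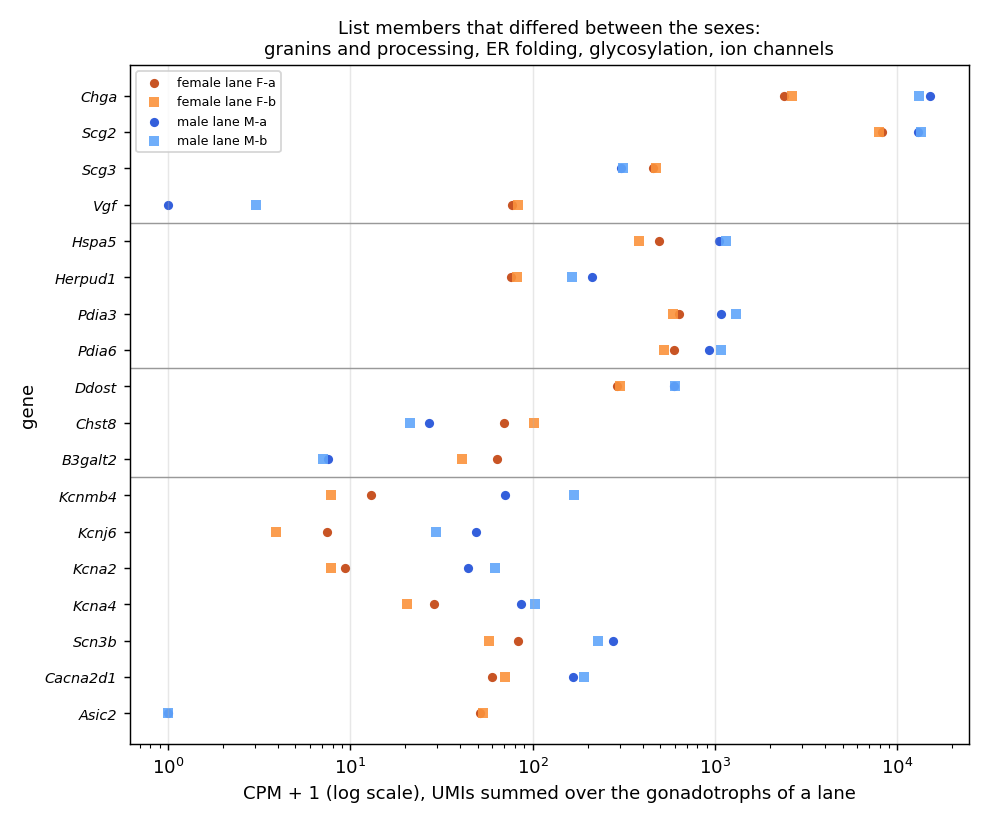
CPM plus 1 (log axis) in each lane for the called members of the granin, ER folding, glycosylation and ion channel lists. All 4 called ER folding genes and 6 of the 7 called ion channel genes are higher in both male lanes. Over all genes, 1.95% are called higher in males and 2.91% in females, and the lanes do not overlap for 58.5%. DESeq2 calls 2 genes of the ER folding list higher in males and 0 in females, and 2 and 1 of the ion channel list.

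*Gnrhr* was at 914, 1060, 1186 and 1282 CPM, a fitted difference of 0.10 (SE 0.11, adjusted p = 0.653). Of 21 genes of GnRH receptor signalling 1 passed, a share near the 4.87% of all genes. It was *Rgs4*, at 533, 438, 206 and 260 (-1.27, SE 0.14, adjusted p = 4.04e-07). Of 15 activin, inhibin, BMP and AMH genes, *Amhr2*, the type II receptor of anti-Müllerian hormone, was at 9.22 and 11.7 in the female lanes and at 165 and 122 in the male lanes (3.54, SE 0.30, adjusted p = 1.86e-08). *Tgfbr3l* was higher in females at 8361, 9145, 6590 and 6639 (-0.63, SE 0.09), but not past the limit by library size (adjusted p = 0.00301), without M-a (0.00105), without M-b (0.00181) or in 1 fit over all hormone-producing types (0.00153). *Inha* and *Inhbb*, the inhibin subunits, were at 16.6, 19.4, 43.4 and 71.2 and at 16.6, 25.2, 52.1 and 52.9, with adjusted p-values of 0.0028 and 0.019.

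Of 15 steroid and thyroid hormone receptor genes, 1 passed, beside 4.87% of all genes. *Pgr*, the progesterone receptor, was at 103, 107, 19.6 and 18.3 CPM (-2.69, SE 0.28, adjusted p = 2.56e-07). *Esr1*, the oestrogen receptor, was at 85.7, 72.8, 45.6 and 69.2 (-0.68, SE 0.24, adjusted p = 0.0554). Among 13 receptors for other ligands, 2 were higher in males, beside 1.95% of all genes. *Adcyap1r1*, the receptor of the hypothalamic peptide PACAP, was at 7.37, 7.76, 76.0 and 91.6 (3.22, SE 0.33), and *Ntrk3*, the neurotrophin-3 receptor, at 8.29, 7.76, 54.3 and 75.3 (2.77, SE 0.36).

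Of 18 ligand genes, 4 were higher in males and 3 in females (2 and 2 with DESeq2), beside 1.95% and 2.91% of all genes. Beside *Nmb*, the male-higher ligands were *Spp1* (233, 195, 862 and 509 CPM, 1.46, SE 0.17), *Ihh* (22.1, 36.9, 113 and 93.6, 1.58, SE 0.27) and the angiogenic factor *Vegfa* (47.9, 42.7, 137 and 110, 1.22, SE 0.22). Those higher in females were *Pgf*, *Nmu*, which encodes neuromedin U (126, 171, 32.6 and 14.2, -2.90, SE 0.29), and *Igfbp2* (67.3, 46.6, 2.17 and 6.10, -3.93, SE 0.48), whose call was lost in 1 fit over all hormone-producing types (adjusted p = 0.00937). Neuromedin B and neuromedin U, both neuropeptides, therefore differed in opposite directions. Adhesion and matrix genes held 2 of 19 toward males (1 with DESeq2), *Cdh2* (1.51, SE 0.17), N-cadherin, and *Lama1* (2.08, SE 0.33), and 1 toward females, *Krt7* (-2.17, SE 0.26), an epithelial keratin.

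Of 15 lineage factors tested, 1 was higher in males and 2 in females, beside 1.95% and 2.91% of all genes. *Gata2*, a regulator of the alpha subunit gene, was higher in males at 132, 147, 389 and 330 CPM (1.14, SE 0.15, adjusted p = 4.73e-06). *Neurod4*, a basic helix-loop-helix factor, was higher in females at 148, 175, 47.8 and 34.6 (-2.19, SE 0.22), as was *Nhlh2* at 115, 85.4, 43.4 and 36.6 (-1.55, SE 0.24), though the latter neither by library size (adjusted p = 0.00144) nor with DESeq2 (0.00671). *Nr5a1* did not pass, at 216, 166, 150 and 134 (adjusted p = 0.007). None of 19 immediate early genes passed with edgeR or with DESeq2, beside 4.87% of all genes with edgeR, and the list median was 0.39, beside 0.01 for all genes. At an unadjusted p below 0.05, 9 were higher in males and 2 in females. Their summed level was 7123, 5139, 10360 and 8920 CPM, higher in both male lanes. Among them *Jun* was uneven between the female lanes, at 414 and 85.4, against 682 and 663 in the male lanes. Immediate early genes respond to cell dispersion, and the part of dispersion in these values was not tested.

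**Figure D5:**
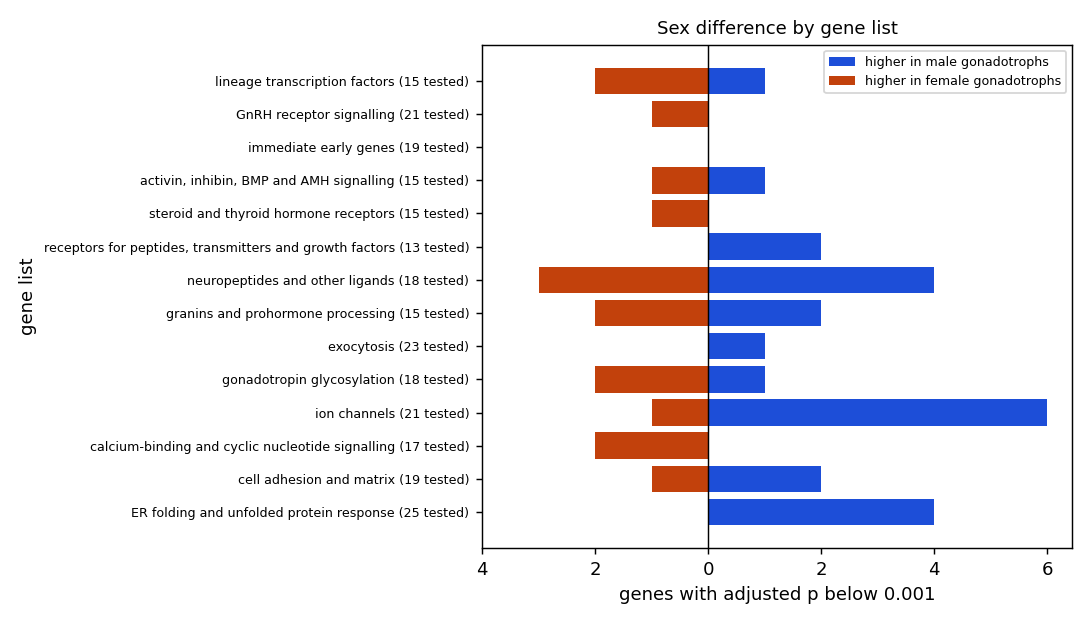
Number of genes of each list called higher in males or in females (adjusted p below 0.001), for lists with at least 10 genes tested. Ion channels show 6 and 1 calls (2 and 1 with DESeq2), ER folding genes 4 and 0 (2 and 0) and the calcium-binding and cyclic nucleotide list 0 and 2 of 17 (0 and 3), beside 1.95% and 2.91% of all genes.

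The sex difference in gonadotrophs was then set against that in the other types. The test is against a mean, so single types may move the same way as gonadotrophs. The male-to-female difference in gonadotrophs, minus its mean over the 4 other types, passed the limit toward males in 45 of 11843 genes (0.380%) and toward females in 84 (0.709%), 129 (1.09%) in all. Of the list members named above, *Chga* was among them (difference of differences 1.93, adjusted p = 1.78e-11), as were *Hspa5* (0.68, adjusted p = 3.5e-04), *Pdia3* (0.70), *Scn3b* (1.33), *Cdh2* (1.32) and, toward females, *Scg3* (-0.98) and *Nmu* (-2.81). *Fshb* was not (0.75, adjusted p = 0.806), its levels in the other types being at most 15.9 CPM. Among genes past the limit *Fam84a* had the largest value toward males, 5.25 (adjusted p = 3.45e-09), with differences between -1.81 and -0.28 in each of the other types. Of the 20 genes with the largest sex differences, *Fam84a*, *Nmb*, *Rin2* and *Vgf* passed this test. Not passing does not make a difference shared with the other types. *Lypd8* and *Spint3* departed by 9.36 and 8.61 without passing. Their levels were 0.195 CPM or less in each other type, too low for the test to decide. *Cited1* (4.25) and *Pgf* (-9.16) did not pass either. Without F-a, F-b or M-a the counts toward males were 20, 17 and 24, and toward females they were 37 to 51 without any 1 lane.

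Markers of other types were measured in the members as well. *Prl* was at 1275 and 1135 CPM in the female lanes, beside 1240 in female folliculostellate cells. It was at 573 and 946 in the male lanes, above the 305 of male folliculostellate cells. Single male members held 1.41%, 1.16% and 0.935% *Prl*, and all others at most 0.0981% (male median 0.0255%). *Gh1* and *Pomc* were at 3221 and 496 against 3197 and 407 in folliculostellate cells. The summed thyrotroph markers were at 39.6, 17.5, 93.4 and 75.3, with *Tshb* the most abundant, against 53840 *Tshb* CPM in thyrotrophs. The 6 folliculostellate markers summed to 82.9, 48.5, 97.7 and 32.6, with *Gstm2* the most abundant. Endothelial markers summed to at most 6.45, mesenchymal markers to at most 6.10 and posterior pituitary markers to at most 10.9. The 2 of 4 erythrocyte markers in the table, *Hbb* and *Hbb-b1*, summed to between 13.0 and 33.0. By contrast, LOC287167, which RefSeq names *Hba-a3*, an alpha globin gene with the list's marker *Hba-a1* among its synonyms, was at 606, 813, 4.34 and 2.04 in gonadotrophs (sex difference -7.96, SE 0.33, adjusted p = 1.75e-13), with a UMI in 43.7% of female and 3.49% of male members. It was at 881 and 3.21 in female and male thyrotrophs, 93.4 and 4.44 in somatotrophs and 48.1 and 0.861 in lactotrophs. In corticotrophs it was at 3.79 and 1.37 and in folliculostellate cells at 37.9 and 14.65. This gene was singled out after its values were seen. Leukocyte markers were at 5.53, 7.76, 8.69 and 114, and all 56 leukocyte UMIs of M-b lay in 1 cell. Proliferation markers summed to at most 8.69, with no *Top2a* UMI. Doublet calls fell on 3 members and high mitochondrial shares on 13, and 2 of the 30 barcodes that occurred in more than 1 lane were members. The *Chga* and *Fshb* calls held without the doublets and without the cells of high mitochondrial share.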

How the data were processed

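UMIs were counted by the authors, per the labels and the study's methods, with Cell Ranger 2.1 on an NCBI rat reference with genes lengthened at the 3′ end, and the lanes were combined after equalizing mapped reads. The deposited table holds these counts as whole numbers for 30058 genes and 7861 cells, 86742346 UMIs in all, including cells the study later left out. Lanes were assigned to sexes by the cell numbers per lane in the study's text, and their replicate numbers are not known. The lanes held 18955509, 20312999, 23425817 and 24048021 UMIs.

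Other types were set by hormone shares of a cell's UMIs (folliculostellate cells by at least 2 of 4 marker genes). UMIs were summed per lane and tested with edgeR 4.0.16 in R 4.3.3 (quasi-likelihood test, TMM factors, filterByExpr with a minimum count of 10), with Benjamini-Hochberg adjustment over all genes tested, two-sided, at a limit of 0.001. The sex test used gonadotrophs only, and the type and interaction tests 20 sums of 5 types. Genes of a type's rule were not tested in its contrast. A fold change from a group at 0 is a bound from 3 UMIs over the group. Named genes had a UMI in at least 20% of cells of the higher group and the largest differences (10 per sex, 20 for types, 5 per direction for the interaction), besides called members of 28 lists, up to 5 per list, and further list members given for context. Genes listed under LOC or MGC symbols were passed over, also where RefSeq has since named them. Members and lists were chosen with earlier results of these data known. Doublets were scored with Scrublet in scanpy 1.11.5 and kept. On simulated counts the sex test recovered 26% of genes changed 2-fold and 98% of those changed 4-fold. The type test recovered 69% and the interaction test 45% of those changed 4-fold, with 0 false calls. These counts had the same dispersion for all genes and, changed genes aside, the same mean profile in all sums. The simulation therefore does not gauge false calls in the real data. Alternatives were DESeq2 1.42.0, other scalings and filters, thinned cells, other limits for members, 1 fit over all hormone-producing types and each lane left out. Promoters were from RefSeq (GRCr8), and coordinates were used for these alone.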

Additional observations from a re-analysis of the deposited data

Results flagged for a closer look

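The male-to-female difference in gonadotrophs departed from its mean over the other 4 hormone-producing types, by the test of the difference itself, in 10 named genes. Toward males the log2 departures were 5.25 for *Fam84a*, 4.72 for *Nmb*, 3.71 for *Kcna4*, 3.21 for *Amhr2* and 2.84 for *Kcnj6*. For *Nmb* the difference was 4.02 in gonadotrophs, 1.81 in thyrotrophs, 2.02 in somatotrophs, -0.76 in corticotrophs and -5.88 in lactotrophs, where it was at 94.4 CPM in females and 2.22 in males. *Kcnj6* differed by 2.74 in gonadotrophs and by -0.27 to 0.15 in the other types. Toward females they were -8.38 for *Rin2*, -6.92 for *Vgf*, -6.08 for *Rnd3*, -4.66 for *Lmo7* and -3.58 for *Crtac1*. *Vgf* was at 172 CPM in male and 33.0 in female lactotrophs, against 0 and 2.04 in the male gonadotroph lanes. *Rin2* had no UMI in the male gonadotrophs, so that its value depends on the fit's prior count, and its difference was also negative in thyrotrophs (-1.11) and somatotrophs (-1.36). *Crtac1* differed by -2.47 in gonadotrophs, -1.14 in thyrotrophs and 4.40 in lactotrophs. Most of these calls were lost without 1 lane or more. The adjusted p of *Rin2* was 0.00695, 0.00666, 0.037 and 0.0165 without F-a, F-b, M-a and M-b, and that of *Lmo7* 0.00855, 0.00439, 0.00262 and 0.0219. Without F-a it was 0.254 for *Amhr2*, 0.0243 for *Kcna4*, 0.0018 for *Kcnj6*, 0.00193 for *Vgf* and 0.00128 for *Rnd3*. Without F-b it was 0.0157 for *Amhr2*, 0.0809 for *Nmb*, 0.00503 for *Kcna4*, 0.0295 for *Kcnj6* and 0.00267 for *Vgf*. Without M-a it was 0.00162 for *Amhr2* and 0.0516 for *Kcnj6*, and without M-b 0.00641 for *Rnd3*. *Kcnj6* was also lost under the stricter rule for members (0.0145), *Rin2* and *Lmo7* with DESeq2 (0.00427 and 0.0278) and by library size (0.00106 and 0.00112), while *Fam84a* and *Crtac1* stayed past the limit under each alternative run. *Rnd3* was at 98.6, 63.1, 2.17 and 4.07 CPM, *Lmo7* at 31.3, 25.2, 2.17 and 0, and *Crtac1* at 70.0, 70.9, 8.69 and 20.3.

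Outside the cells analysed, 14 male cells and no female cell had *Cga* at 1% or more and *Fshb* at 0.1% or more of UMIs but *Lhb* below 0.3%, 5 in M-a and 9 in M-b. Among members, 83 of 86 male but 44 of 158 female cells reached 0.1% *Fshb*. The criterion would thus miss most female cells of low *Lhb*, and these numbers cannot be compared between the sexes. The values that follow are of the male cells. Their median *Fshb* share was 0.627%, *Lhb* 0.142% and *Cga* 2.22%, at a median of 7479 UMIs. All 14 had a *Gnrhr* UMI, 13 a *Tgfbr3l* UMI and 7 an *Nr5a1* UMI, and none reached 0.1% *Tshb*. Adding cells by *Fshb*, an alternative chosen after seeing the data, gave 143 genes higher in males and 205 in females.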

How the results depend on the processing

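No paired analysis was possible for the sex comparison because the barcodes carry a lane number and no replicate number. The types of a lane do share that lane. With the lane as a block, an alternative chosen after seeing the data, 184 genes were higher than in all 4 types. The interaction calls then numbered 52 toward males and 114 toward females. None of the 20 genes named for types and the 10 named for the interaction lost its call with this block. No tested difference of a named gene changed its sign under the alternatives run, but the balance of calls between the sexes and the signs of 3 list medians turned with the scaling. Genes higher in males numbered 139, 55 with DESeq2, 9 after thinning to 4000 UMIs and 144 to 149 with a lane left out. Genes higher in females numbered 207, 123 with DESeq2, 89 by library size (183 in males), 350 without the filter, 14 after thinning and 161 to 251 with a lane left out. Genes higher than in all 4 types numbered 178, and 97 to 152 with a lane left out. Interaction calls toward males numbered 45, 86 with DESeq2, 71 without the filter and 17 to 32 with a lane left out, and those toward females 84, 47 by library size, 160 without the filter and 37 to 51 with a lane left out. *Fshb* was at 1831 CPM in females and 8978 in males, 2222 and 10110 over totals without 7 hormone genes, and 1417 and 8329 after thinning. Of 51 named genes of the sex comparison, 36 of the 40 that could be tested after thinning and 11 of 42 with DESeq2 were past the limit no longer. The 11 were *Thrsp*, *Nhlh2*, *Sytl4*, *B3galt2*, *Ddost*, *Chst8*, *Cacna2d1*, *Kcna2*, *Lama1*, *Herpud1* and *Pdia6* (DESeq2 adjusted p between 0.00112 and 0.0379). Without cells of high mitochondrial share *Col18a1*, *Scg2*, *Sytl4*, *Herpud1* and *Pdia6* were lost, in 1 fit over all hormone-producing types *Col18a1*, *Tgfbr3l* and *Igfbp2*, and under the looser rule for members *Scg2* and *Pdia6*. Under library size the medians of GnRH signalling, ligands and exocytosis went from -0.03, -0.17 and -0.16 to 0.20, 0.05 and 0.07. With 42 to 83 members a lane, genes of few UMIs are tested with little power.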
